A study of Mus musculus with 2 samples.

Results

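Activins are secreted dimers of inhibin beta subunits, and 9 of the 32285 genes in the count matrices were chosen by symbol as this family and its partners. They are the subunit genes Inhbb and Inhba, the type I receptor gene Acvr1b, the type II receptor genes Acvr2a and Acvr2b, the co-receptor gene Tgfbr3, and the follistatin and follistatin-like genes Fst, Fstl3 and Fstl1. All 9 were listed in both matrices and were followed in lung endothelial cells (ECs) by vessel type and in melanoma cells. Each group was 1 single-cell library from C57BL/6 mice labelled WT. Control mice received PBS by tail vein, the other mice 400000 B16-F10 cells in 100 µl, and lungs were taken after 6 h. B16-F10 is an established mouse melanoma line, dyed green before injection. Pecam1+ Ptprc- cells were sorted from the lungs, and dyed cells were collected beside them. The labels give 2 mice per treatment while the study's methods describe a larger pool, and animals cannot be separated within a library.

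An activin dimer binds a type II receptor kinase, which activates a type I receptor such as the product of Acvr1b, and Smad2 and Smad3 carry the signal to the nucleus. Inhbb encodes the chain of activin B and Inhba that of activin A. Follistatin (Fst) and its relative Fstl3 bind activins outside the cell and block them, and betaglycan (Tgfbr3) helps inhibins to occupy the type II receptors. In the lung, activins are known from inflammation and tissue repair, and general capillary ECs are known as the cells from which capillaries regrow after injury.

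The subunit genes differ in the letters before their starts. Inhbb (ENSMUSG00000037035, protein coding) spans chr1:119415465-119422248 on the minus strand of GRCm38, and Inhba (ENSMUSG00000041324, protein coding) spans chr13:16011851-16031621 on the plus strand. The 250 bases before each start are printed 5′ to 3′ from RefSeq (GRCm38.p6), because Inhbb was the member that differed most between the libraries and Inhba, the other activin chain, was barely counted. Capitals mark matches to the motifs searched on both strands, which were NF-kB by its consensus, STAT spelled TTCNNNGAA, AP-1 spelled TGANTCA and CRE spelled TGACGTCA. The promoter elements searched were the GC box spelled GGGCGG, the E-box spelled CACGTG, the TATA box spelled TATAAA and the CCAAT box by its own letters. No matches overlapped in these windows.
Inhbb, chr1:119422249-119422498, minus strand: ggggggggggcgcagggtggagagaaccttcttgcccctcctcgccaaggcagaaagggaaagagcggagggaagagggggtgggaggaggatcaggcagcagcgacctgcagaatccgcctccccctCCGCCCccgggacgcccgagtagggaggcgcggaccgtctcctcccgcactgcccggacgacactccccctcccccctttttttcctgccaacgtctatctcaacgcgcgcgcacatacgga
Inhba, chr13:16011601-16011850, plus strand: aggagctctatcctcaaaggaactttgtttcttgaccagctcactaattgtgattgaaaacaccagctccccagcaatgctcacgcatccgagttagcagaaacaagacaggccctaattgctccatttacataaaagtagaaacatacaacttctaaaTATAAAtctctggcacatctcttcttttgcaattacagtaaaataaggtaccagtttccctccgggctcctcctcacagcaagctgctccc
The Inhbb window held 68.0% G and C and 1 GC box, 122 bases before the start, with no match to the other motifs. The Inhba window held 43.2% G and C and 1 TATA box, 91 bases before the start, with no match to the others. Over 32851 RefSeq windows of this length the median was 52.4% G and C. A GC box lay in 32.7% of them, a TATA box in 12.4%, NF-kB in 7.25%, STAT in 7.02%, AP-1 in 6.75%, CRE in 1.55%, a CCAAT box in 33.9% and an E-box in 6.02%. These are matches of letters only. Of the 9 members 7 had an entry in this table, and Fst and Tgfbr3 had none.

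The other members span chr15:101174067-101213684 (Acvr1b, plus strand), chr2:48814109-48903269 (Acvr2a, plus), chr9:119402118-119434995 (Acvr2b, plus), chr5:107106570-107289629 (Tgfbr3, minus), chr13:114452290-114458951 (Fst, minus), chr16:37776873-37836514 (Fstl1, plus) and chr10:79777272-79782630 (Fstl3, plus). Inhba, Fst, Fstl3, Acvr2a and Acvr2b each overlap a gene on the opposite strand (Gm48444, Gm47040, Prss57, Orc4 and Gm47320). Whether counting used strand is not given in the sources used here, so the counts of these 5 are uncertain. Inhbb, Acvr1b, Tgfbr3 and Fstl1 overlap no other annotated gene of the count matrices, and genes outside the matrices were not searched.

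The libraries held 85794655 (control) and 104978816 (B16-F10) UMIs, a UMI being 1 captured RNA molecule, and 7830 and 7767 cells were kept at median depths of 7510 and 8557 UMIs. Of the barcodes with at least 300 genes 36 occurred in both libraries. Classes were rebuilt from marker genes and are written with "-like". They held 4679 and 4340 general capillary (gCap-like), 1446 and 968 aerocyte (aCap-like), 239 and 174 artery-like, 295 and 280 vein-like and 58 and 51 lymphatic (LEC-like) ECs in the control and B16-F10 libraries, and 0 and 78 melanoma-like cells. A further 346 and 477 ECs stayed unnamed, and 742 and 1280 cells lay in mixed clusters that also carried markers of another cell type. Levels are CPM, a gene's UMIs per 1e6 UMIs of the class, with exact Poisson 95% intervals, and ratios are log2 of B16-F10 over control with exact conditional binomial 95% intervals, covering counting error alone. As each group is 1 library, no replicate check or test was possible, and treatment cannot be told apart from any other difference between the libraries.

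Inhbb was far higher in the B16-F10 library in gCap-like, aCap-like and artery-like ECs. In gCap-like ECs it was 194 UMIs (5.43 CPM, 4.69 to 6.25) in the control library and 3553 UMIs (91.8 CPM, 88.8 to 94.8) in the B16-F10 library. The log2 ratio was 4.08 (3.87 to 4.29), or 16.9-fold. Of the 7 members with at least 50 UMIs in this class, 1 (Inhbb) was at least 2-fold higher, where 3.17% of 13195 genes were, and 0 were at least 2-fold lower, where 2.52% were. Markers of other cell types also differed in these ECs. The 8 melanoma markers summed to 1.62 CPM in the control library, with 3 at 0, and 36.5 CPM in the B16-F10 library, with none at 0. The 8 epithelial markers summed to 56.0 and 107 CPM and the 8 macrophage and monocyte markers to 14.1 and 28.5 CPM. Their part in the Inhbb values was not tested.

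In aCap-like ECs, the thin cells of gas exchange, Inhbb was 3 UMIs (0.229 CPM, 0.0472 to 0.669) and 83 UMIs (7.63 CPM, 6.08 to 9.46), a log2 ratio of 5.06 (3.46 to 7.37). Its level was below that of gCap-like ECs in both libraries, by log2 -4.57 (-6.86 to -3.00) and -3.59 (-3.92 to -3.27). Of 6 members with at least 50 UMIs in aCap-like ECs, 1 (Inhbb) was at least 2-fold higher (2.18% of genes) and 0 at least 2-fold lower (2.06%).

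In artery-like ECs Inhbb was 5 UMIs (2.60 CPM, 0.846 to 6.08) and 58 UMIs (35.0 CPM, 26.6 to 45.3), with a log2 ratio of 3.75 (2.44 to 5.42). It was the 1 of 5 measured members at least 2-fold higher there, where 2.08% of genes were. The ratio was 2.67 with at least 1500 genes per cell, 5.85 at clustering resolution 1.6 and 6.14 with doublets kept, the last 2 on 1 control UMI each. In vein-like ECs it was 12 UMIs (3.85 CPM, 1.99 to 6.73) and 29 UMIs (9.20 CPM, 6.16 to 13.2), with a log2 ratio of 1.25 (0.24 to 2.36). It had fewer than 50 UMIs there, and 0 of the 5 members past that limit were at least 2-fold higher, where 1.67% of genes were. Only 0.678% of the 295 control vein-like cells held an Inhbb UMI, so the 12 control UMIs lay in few cells. Counting intervals leave out such spread between cells. The vein-like ratio was 4.79 to 5.55 under 5 other choices of cell limits, doublets and clustering, each on 1 or 2 control UMIs. Its size is not settled by these data.

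Markers of other cell types differed in these classes as well. The 8 melanoma markers summed to 2.44 and 29.7 CPM in aCap-like, 1.56 and 41.0 CPM in artery-like and 0.642 and 27.3 CPM in vein-like ECs of the control and B16-F10 libraries, with 2, 6 and 6 at 0 in the control library and 1, 3 and 1 in the other. The epithelial markers summed to 45.3 and 85.1 CPM, 62.5 and 109 CPM and 34.4 and 84.3 CPM. Red cell markers were higher in vein-like ECs (511 and 3546 CPM) and lower in aCap-like (1992 and 1093 CPM) and artery-like ECs (2632 and 1027 CPM). Their part in the Inhbb values was not tested.

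LEC-like ECs held 1 and 2 Inhbb UMIs (2.08 CPM, 0.0526 to 11.6, and 4.16 CPM, 0.503 to 15.0), too few for a ratio. In the control library, with the cells as classed here, the intervals of gCap-like, vein-like, artery-like and LEC-like ECs overlapped. The aCap-like ECs lay below the first 3 of these. At clustering resolution 1.6 vein-like (0.331 CPM, 0.00839 to 1.85) and artery-like control ECs (0.706 CPM, 0.0179 to 3.93) held 1 Inhbb UMI each. Both then lay below gCap-like ECs (5.25 CPM, 4.45 to 6.16) and overlapped aCap-like ECs (0.229 CPM, 0.0472 to 0.669). In the B16-F10 library gCap-like ECs were highest and artery-like ECs next with the cells as classed here, and the intervals of vein-like, aCap-like and LEC-like ECs overlapped. The order of gCap-like and artery-like ECs turned under other choices of processing. With doublets kept Inhbb was 16.9 CPM (15.3 to 18.5) in gCap-like and 47.9 CPM (37.1 to 61.0) in artery-like ECs of the B16-F10 library. With cells under 10% mitochondrial UMIs it was 16.7 CPM (15.3 to 18.3) and 27.2 CPM (20.8 to 35.0). The gCap-like class then held 454 and 488 Inhbb UMIs of the B16-F10 library, against 3553 as classed here.

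**Figure D1:**
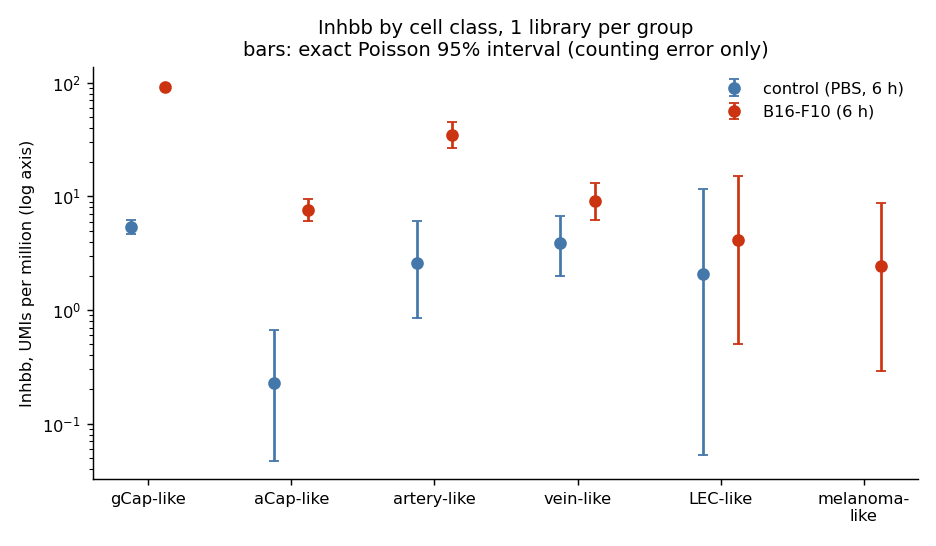
Inhbb in CPM (log axis) in 5 vessel classes and melanoma-like cells, control and B16-F10, 1 library each, with exact Poisson 95% intervals. The B16-F10 level in gCap-like ECs is 91.8 against 5.43 CPM in the control library, and the LEC-like intervals overlap.

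In the B16-F10 library 3088 of the 3553 Inhbb UMIs of gCap-like ECs lay in 1 cluster, led by Lalba, Tmem252 and Adamts9, with 80 control and 1049 B16-F10 cells, so different clusters make up the class in the 2 libraries. Inhbb there was 30.0 CPM (18.1 to 46.8) and 315 CPM (304 to 326). The cluster carried 43.5% of the Inhbb UMIs of the B16-F10 cells and 14.6% of all their UMIs. The members were left out of the clustering genes. Without this cluster, a grouping chosen after its values were seen, Inhbb in gCap-like ECs was 4.99 and 16.1 CPM, a log2 ratio of 1.69 (1.44 to 1.95). The ratio was likewise 1.82 with cells under 10% mitochondrial UMIs and 2.18 with doublets kept. In these settings the gCap-like class itself differed, with 3417 and 3156 B16-F10 cells and 488 and 454 Inhbb UMIs.

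In the other 5 gCap-like clusters Inhbb was also higher in the B16-F10 library, with every interval above 0. Over all 6 clusters the log2 ratios ran from 1.32 in the Hilpda-led cluster (8.68 and 21.7 CPM) to 3.39 in the Lalba-led cluster. The Ntrk2-led cluster had the lowest value of the 6 in both libraries, 1.01 and 4.66 CPM, and its control interval overlapped that of the Vegfc-led cluster.

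An unnamed EC cluster led by Sox9, Csf2 and Fosl1, with 7 control and 296 B16-F10 cells, had the highest Inhbb level of the 26 clusters. It met 7 of 8 EC markers and no vessel class. Its control cells held no Inhbb UMI, with an exact upper limit of 57.6 CPM, and 3 UMIs there would be 46.9 CPM. Its B16-F10 cells held 2953 (995 CPM, 959 to 1031), 21.2-fold the level of 3 UMIs. With 4.41% of the UMIs of the B16-F10 cells it carried 41.6% of their Inhbb UMIs. Fibroblast markers summed to 16.5 CPM and mural markers to 78.2 CPM in it, against 15.4 and 64.7 CPM in gCap-like ECs, and their part in the result was not tested.

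**Figure D2:**
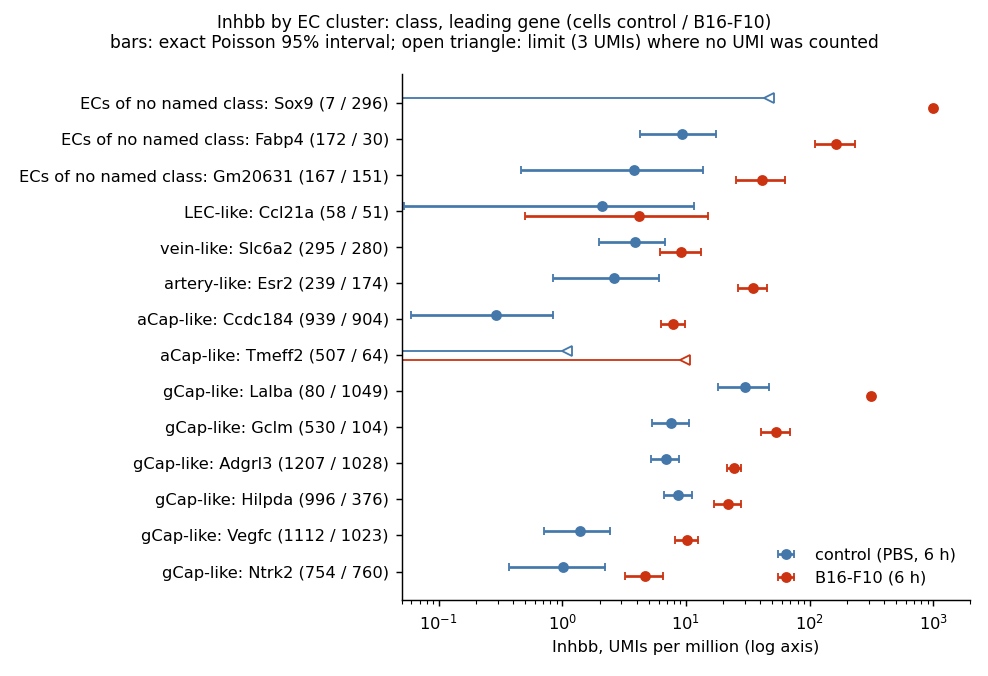
Inhbb in CPM (log axis) by EC cluster, labelled with class, leading gene and cells per library, with exact Poisson 95% intervals. Open triangles mark the level of 3 UMIs where none was counted. The Sox9-led (995 CPM) and Lalba-led (315 CPM) clusters are highest in the B16-F10 library.

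Cells with an Inhbb UMI were a minority of gCap-like ECs. When each cell was thinned once at random to 2000 UMIs, one was found in 39 of 4644 cells of the control (0.840%, 0.598 to 1.15) and 443 of 4327 of the B16-F10 library (10.2%, 9.35 to 11.2), a difference of 9.40 percentage points (8.48 to 10.4, Newcombe; shares with exact Clopper-Pearson intervals). Over all such draws the expected shares were 0.920% and 9.78%. Before thinning, 3.06% and 20.2% of cells held one, where cells had a median of 7394 and 8558 UMIs. Thinning left out 35 and 13 shallower cells. The difference was 2.00 points without the Lalba-led cluster, 1.97 with cells under 10% mitochondrial UMIs and 2.25 with doublets kept. Under the mitochondrial and doublet settings the gCap-like class held 3417 and 3156 B16-F10 cells, with 488 and 454 Inhbb UMIs. As classed here it held 4340 cells and 3553 Inhbb UMIs. All B16-F10 cells kept numbered 7722 and 8321, against 7767 here, so the cells called gCap-like differed between settings.

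aCap-like ECs, low in Inhbb in both libraries, gave 1 of 1428 cells in the control (0.0700%, 0.00177 to 0.390) and 9 of 962 in the B16-F10 library (0.936%, 0.429 to 1.77) after thinning, and 0.207% and 3.00% before, at median depths of 9156 and 11365.5 UMIs. The gCap-like shares lay above these in each library. In melanoma-like cells the thinned share was 1 of 77 (1.30%, 0.0329 to 7.03). The Lalba-led cluster reached 353 of 1047 B16-F10 cells (33.7%, 30.9 to 36.7) and the Sox9-led cluster 205 of 294 (69.7%, 64.1 to 74.9). Of the thinned B16-F10 gCap-like cells 265 held 1 Inhbb UMI, 87 held 2, 77 held 3 to 5 and 14 held 6 or more.

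Free RNA differed between the libraries too. Barcodes with 1 to 100 UMIs held Inhbb at 3.88 CPM (2.43 to 5.87) in the control and 54.5 CPM (47.0 to 62.9) in the B16-F10 library. At the estimated free-RNA share of gCap-like ECs, 2.17% and 3.11%, the median of 6 marker lists of other cell types (range 1.48 to 8.56% and 1.72 to 5.15%), this would supply 0.0843 and 1.70 CPM, against 5.43 and 91.8 CPM measured. In aCap-like ECs it would supply 0.103 and 1.42 CPM, against 0.229 and 7.63 CPM, and from 0.0464 to 0.396 and 0.748 to 2.98 CPM over the 6 lists. The control value of aCap-like ECs could thus not be told apart from free RNA, and the B16-F10 interval (6.08 to 9.46) lay above that range. In LEC-like ECs it would supply 0.0882 and 1.38 CPM, inside the intervals measured there.

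Inhba, the activin A chain gene, was at the edge of detection. gCap-like ECs held 3 and 1 UMIs, artery-like ECs 2 and 0, vein-like ECs 1 and 0, and LEC-like ECs none. aCap-like ECs held 13 UMIs (0.992 CPM, 0.528 to 1.70) and 21 UMIs (1.93 CPM, 1.20 to 2.95), and the interval of the log2 ratio, 0.96 (-0.10 to 2.08), included 0. Within that class the Ccdc184-led cluster held 5 and 21 Inhba UMIs (log2 ratio 2.04, 0.59 to 3.80), while the Tmeff2-led cluster, with 507 and 64 cells, held 8 and 0. In the B16-F10 library Inhba was higher in aCap-like than in gCap-like ECs by log2 6.22 (3.59 to 11.59), the opposite order from Inhbb.

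In the 5 vessel classes the receptor and co-receptor genes were lower in the B16-F10 library or differed by less than counting error. None was 2-fold different in gCap-like or aCap-like ECs. Unnamed ECs, made up of different clusters in the 2 libraries, had higher Acvr1b (48.05 and 82.7 CPM, 0.78, 0.41 to 1.17). They had lower Acvr2a (-1.76, -2.05 to -1.47), Acvr2b (-1.45, -2.45 to -0.47) and Tgfbr3 (-2.24, -2.49 to -1.99). In gCap-like ECs the interval lay above 0 for 1 of the 7 measured members (Inhbb) and below 0 for 4 (Acvr2a, Acvr2b, Tgfbr3 and Fstl1). Over all genes 28.6% lay above 0 and 34.6% below.

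Acvr1b, a type I receptor of activin, was 94.6 CPM (91.4 to 97.8) and 90.3 CPM (87.3 to 93.3) in gCap-like ECs, a log2 ratio of -0.07 (-0.14 to 0.00). Without the Lalba-led cluster it was -0.20 (-0.27 to -0.12), with the interval below 0. Of the 6 clusters 2 were higher and 4 lower, with 3 intervals below 0. In aCap-like ECs it was 136 and 118 CPM (-0.21, -0.31 to -0.10), but the ratio was -0.09 (-0.20 to 0.02) in the Ccdc184-led cluster and -0.04 (-0.47 to 0.37) in the Tmeff2-led cluster, so within clusters 0 was included. Artery-like ECs (104 and 124 CPM) and vein-like ECs (85.1 and 81.5 CPM) had intervals that included 0. LEC-like ECs had the lowest level, 16.6 and 10.4 CPM, below gCap-like ECs by log2 -2.51 (-3.72 to -1.53) and -3.12 (-4.74 to -1.90).

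Acvr2a, a type II receptor that binds activins, was 73.0 CPM (70.3 to 75.9) and 50.8 CPM (48.6 to 53.1) in gCap-like ECs, a log2 ratio of -0.52 (-0.61 to -0.44). It was lower in all 6 gCap-like clusters, with 4 intervals below 0. In aCap-like ECs it was 93.0 and 64.5 CPM (-0.53, -0.66 to -0.39). The ratio was -0.33 (-0.48 to -0.18) in the Ccdc184-led cluster. In the Tmeff2-led cluster, with 507 and 64 cells, it was -0.002 (-0.48 to 0.44). The intervals of artery-like (-0.13, -0.48 to 0.21) and vein-like ECs (-0.25, -0.54 to 0.05) included 0. LEC-like ECs had the highest level, 259.9 and 160.0 CPM, a log2 ratio of -0.70 (-1.13 to -0.28), and stood above gCap-like ECs by log2 1.83 (1.56 to 2.09) and 1.66 (1.31 to 1.98).

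Acvr2b, the other type II receptor, was 24.3 CPM (22.7 to 26.0) and 15.8 CPM (14.5 to 17.1) in gCap-like ECs, a log2 ratio of -0.63 (-0.78 to -0.48). It was lower in all 6 clusters, from -1.20 in the Lalba-led cluster to -0.08, with 4 intervals below 0. In aCap-like ECs it was 23.8 and 18.7 CPM (-0.35, -0.61 to -0.09), but the ratio was -0.31 (-0.60 to -0.03) in the Ccdc184-led cluster and 0.71 (-0.19 to 1.52) in the Tmeff2-led cluster. Artery-like ECs held 28 and 14 UMIs and vein-like ECs 47 and 37, with intervals that included 0.

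Tgfbr3, which encodes betaglycan, was 162 CPM (158 to 166) and 129 CPM (126 to 133) in gCap-like ECs, a log2 ratio of -0.33 (-0.38 to -0.27), with intervals below 0 in all 6 clusters. It was also lower in aCap-like (275 and 199.5 CPM, -0.46, -0.54 to -0.38), artery-like (183 and 143 CPM, -0.35, -0.60 to -0.11) and vein-like ECs (238 and 204 CPM, -0.22, -0.38 to -0.07). Within aCap-like ECs the ratio was -0.33 (-0.41 to -0.25) in the Ccdc184-led cluster and -0.31 (-0.63 to 0.002) in the Tmeff2-led cluster. In LEC-like ECs, where its level was highest (397 and 376 CPM), the interval included 0 (-0.08, -0.38 to 0.22).

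Within the B16-F10 library the 2 clusters richest in Inhbb, the unnamed Sox9-led and the gCap-like Lalba-led cluster, differed in these genes from gCap-like ECs outside the Lalba-led cluster. In the Sox9-led cluster Tgfbr3 was 21.6 CPM against 134 CPM in gCap-like ECs outside the Lalba-led cluster, a log2 ratio of -2.64 (-3.02 to -2.28). Acvr2b was 2.02 against 17.6 CPM (-3.12, -4.58 to -1.99) and Acvr2a 30.0 against 51.9 CPM (-0.79, -1.11 to -0.48), while for Acvr1b the interval included 0 (-0.15, -0.36 to 0.05). The Lalba-led cluster also had lower Acvr2b (-0.77, -1.10 to -0.46) and Tgfbr3 (-0.23, -0.32 to -0.13), but higher Acvr1b (0.48, 0.38 to 0.58). Its cells with 2 or more Inhbb UMIs after thinning held Tgfbr3 at 72.3 CPM (46.3 to 107.6), those with 1 at 128 CPM (94.6 to 170.2) and those with none at 125 CPM (107.4 to 145.4). These intervals overlapped. In the same order Acvr1b was 90.4, 120 and 108 CPM, Acvr2a 45.2, 40.1 and 55.5 CPM and Acvr2b 3.01, 5.35 and 12.25 CPM, with overlapping intervals for each gene.

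**Figure D3:**
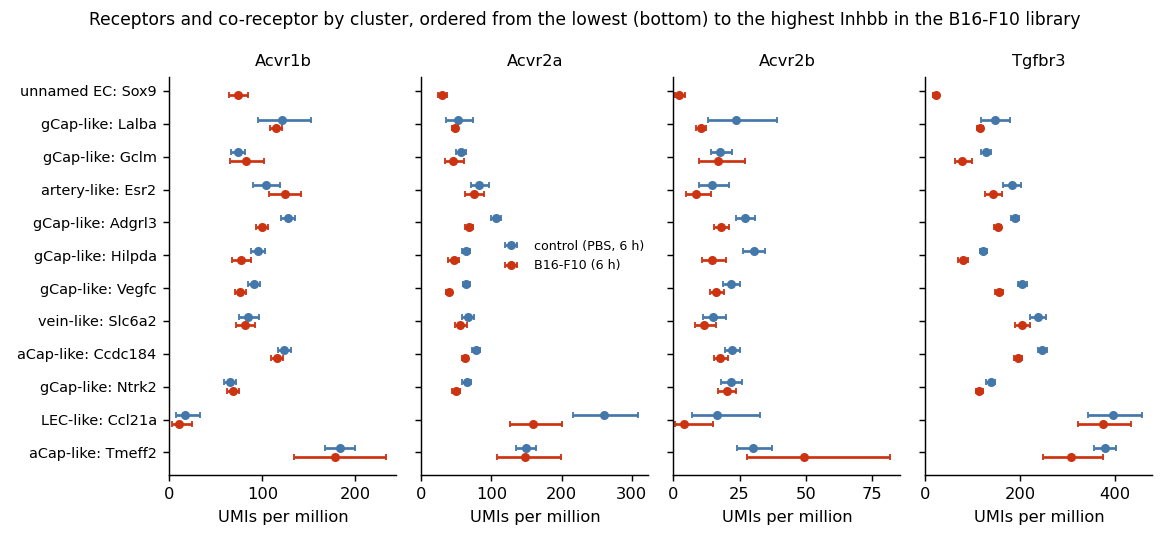
Acvr1b, Acvr2a, Acvr2b and Tgfbr3 in CPM (linear axes that differ between genes) by EC cluster, with exact Poisson 95% intervals. Clusters with under 50 control cells have no control point, and in the B16-F10 library Tgfbr3 (21.6 CPM) and Acvr2b (2.02 CPM) are low in the Sox9-led cluster.

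The follistatin genes were nearly absent from ECs. Fst, the classical activin blocker, gave 36 and 34 UMIs in gCap-like ECs (1.01 CPM, 0.706 to 1.40, and 0.878 CPM, 0.608 to 1.23), a log2 ratio of -0.20 (-0.92 to 0.52). aCap-like ECs held 1 and 0 Fst UMIs, and artery-like, vein-like and LEC-like ECs none. The unnamed Sox9-led cluster of the B16-F10 library held 13 (4.38 CPM), above gCap-like ECs outside the Lalba-led cluster by log2 2.08 (1.01 to 3.06). Fstl3 gave 3 and 5 UMIs in gCap-like and 4 and 3 in aCap-like ECs.

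Fst was highest in a mixed cluster led by Clec3b, Col3a1 and Col1a1, with 77 UMIs (174 CPM) in 55 control cells and 85 UMIs (108 CPM) in 87 B16-F10 cells. Fstl3 gave 13 and 15 UMIs there. That cluster met 6 of 8 fibroblast and 6 of 8 mural markers beside 6 of 8 EC markers and was not counted as ECs. In gCap-like ECs fibroblast markers summed to 8.14 and 15.4 CPM and mural markers to 36.5 and 64.7 CPM, and their part in the few Fst UMIs was not tested.

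Fstl1, a secreted glycoprotein gene, was highest in the larger vessels. In the control library it was 249 CPM in artery-like, 234 CPM in vein-like and 118 CPM in LEC-like ECs, above gCap-like ECs (26.8 CPM) by log2 3.21 (3.05 to 3.37), 3.12 (2.98 to 3.27) and 2.14 (1.73 to 2.53). In the B16-F10 library these 3 classes again stood above gCap-like ECs, by log2 3.23 (3.04 to 3.41), 3.43 (3.28 to 3.57) and 1.74 (1.21 to 2.22). The intervals of artery-like and vein-like ECs overlapped in each library.

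Between the libraries Fstl1 was lower in gCap-like (21.8 CPM in B16-F10, -0.30, -0.43 to -0.16), artery-like (205 CPM, -0.28, -0.49 to -0.08) and LEC-like ECs (72.7 CPM, -0.70, -1.35 to -0.07). Of the 6 gCap-like clusters 4 were lower and 2 higher, with 1 interval below 0. The vein-like ratio was 0.00 (-0.15 to 0.15). In aCap-like ECs it was 0.21 (-0.01 to 0.44), and 0.29 (0.05 to 0.53) without the Tmeff2-led cluster, with the interval above 0.

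**Figure D4:**
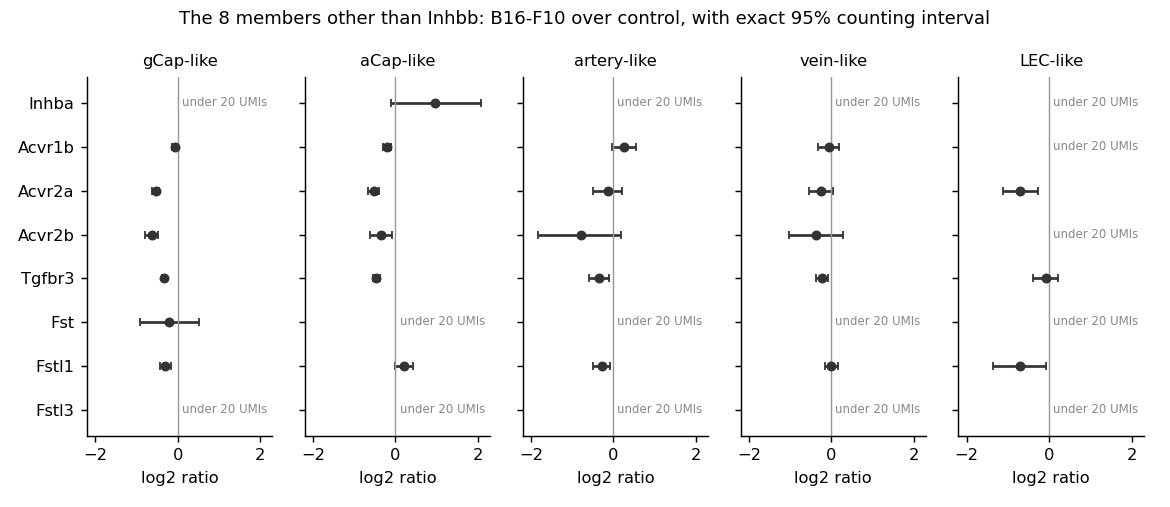
Log2 ratios of B16-F10 over control for the 8 members other than Inhbb in 5 vessel classes, with exact 95% counting intervals and a line at 0. Members with under 20 UMIs over both libraries have no ratio. Acvr2a, Acvr2b and Tgfbr3 lie below 0 in each class where a ratio is drawn, and part of their intervals include 0. Under other choices of processing the value was above 0 for Acvr2a in artery-like ECs in 4 cases (0.02 to 0.45) and for Tgfbr3 in LEC-like ECs in 3 (0.07 to 0.44), each with an interval that included 0.

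Melanoma-like cells met 8 of 8 melanoma markers and held few UMIs of any member. The 78 cells held 2 Inhbb UMIs (2.42 CPM, 0.292 to 8.72), 3 of Acvr1b, 2 each of Fstl1 and Tgfbr3, 1 each of Acvr2a and Acvr2b, and none of Inhba, Fst and Fstl3, which allows 3.62 CPM at 3 UMIs. Against gCap-like ECs of that library Inhbb differed by log2 -5.25 (-8.29 to -3.39), Tgfbr3 by -5.74 (-8.79 to -3.89) and Acvr1b by -4.64 (-6.92 to -3.09). Free RNA at the gCap-like share would supply 1.70 CPM of Inhbb, 2.66 of Tgfbr3 and 2.09 of Acvr1b, inside the intervals measured. At this depth expression of these 3 genes in the 78 melanoma-like cells kept could not be told apart from free RNA. Summed over the 9 members the level was 13.3 CPM, and 4.73 to 48.9 CPM under other choices of processing. It was highest with no upper gene limit, which gave 90 melanoma-like cells. Inhbb was 3 UMIs (1.63 CPM, 0.336 to 4.76) in those cells, and the other members were not listed singly there.

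Of 60 other genes of activin and TGF-beta signalling 40 had at least 50 UMIs in gCap-like ECs. Of these 2 were at least 2-fold higher and 3 at least 2-fold lower in the B16-F10 library, where 3.17% and 2.52% of all genes were. Of their intervals 12 lay above 0 and 20 below, where 28.6% and 34.6% of all genes did, and the median log2 ratio was -0.09 beside -0.04 over all genes.

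Target genes went both ways, with 6 of 12 intervals above 0 and 4 below, where 28.6% and 34.6% of all genes were. Their median was 0.06. Smad7, Skil and Tgif1 were counted among the inhibitors as well, and Ltbp2 among the processing and storage genes, so the counts by list overlap. Tagln, an actin-binding protein gene, differed from 1.74 to 3.46 CPM (1.00, 0.55 to 1.45). Ltbp2, a latent TGF-beta binding protein gene, differed from 2.32 to 3.98 CPM (0.78, 0.38 to 1.18). Ltbp2 was also a leading gene of the mixed Fam162b-led cluster, which has mural markers. In gCap-like ECs mural markers summed to 36.5 and 64.7 CPM, smooth muscle markers to 80.9 and 97.1 CPM and fibroblast markers to 8.14 and 15.4 CPM. Their part in the Tagln and Ltbp2 values was not tested. Id2, a helix-loop-helix inhibitor gene responsive to BMP signals, was lower, from 132 to 46.7 CPM (-1.50, -1.57 to -1.42).

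Of the 10 measured inhibitors of the pathway 6 had intervals below 0, where 34.6% of all genes did, and 0 above, where 28.6% did, with a median of -0.26. Bambi, a decoy receptor gene, was lower, from 20.6 to 8.91 CPM (-1.21, -1.40 to -1.02). The inhibitory Smad genes Smad6 and Smad7 were lower, from 743 to 392 CPM (-0.92, -0.95 to -0.89) and from 682 to 439.6 CPM (-0.63, -0.66 to -0.60). So was Smurf2, a ubiquitin ligase gene that acts with Smad7, from 616 to 422 CPM (-0.55, -0.58 to -0.52).

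Of the 6 measured Smad-list genes 2 intervals lay above 0 and 4 below, where 28.6% and 34.6% of all genes did. Their median was -0.21. Smad1 and Smad5 of the BMP branch were higher, from 99.9 to 133 CPM (0.41, 0.35 to 0.47) and from 44.4 to 55.9 CPM (0.33, 0.24 to 0.43). Smad9 of the same branch was lower, from 11.9 to 3.49 CPM (-1.78, -2.07 to -1.50), as was the shared Smad4, from 145 to 122 CPM (-0.24, -0.30 to -0.19).

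Of 7 measured receptor genes outside the members 3 intervals lay above 0 and 4 below, where 28.6% and 34.6% of all genes did. Their median was -0.06. Bmpr1a, a BMP type I receptor gene, was higher, from 0.980 to 1.99 CPM (1.02, 0.43 to 1.64), as was Tgfbr2, from 77.6 to 91.3 CPM (0.23, 0.16 to 0.31). Acvr1, another type I receptor gene, was lower, from 55.1 to 39.1 CPM (-0.49, -0.59 to -0.40), as was Bmpr2, from 2718 to 2104 CPM (-0.37, -0.38 to -0.36).

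Among 7 measured processing and storage genes 2 intervals lay above 0 and 3 below, where 28.6% and 34.6% of all genes did. Their median was -0.02, and Ltbp2 was among those above. Furin, a protease that cleaves precursors of this family, was higher, from 61.1 to 87.1 CPM (0.51, 0.43 to 0.59), and Pcsk5, a related convertase gene, lower, from 109.8 to 74.0 CPM (-0.57, -0.64 to -0.50). Ltbp1 was lower too, from 95.7 to 77.4 CPM (-0.31, -0.38 to -0.24). Of 10 other ligand genes 2 were measured, with a median of -0.26, and Tgfb2 was lower, from 5.85 to 3.87 CPM (-0.59, -0.91 to -0.28).

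Without the Lalba-led cluster the log2 ratios in gCap-like ECs were -1.38 (-1.67 to -1.09) for Smad9, -1.25 (-1.33 to -1.16) for Id2, -1.02 (-1.22 to -0.82) for Bambi, -0.79 (-0.82 to -0.76) for Smad6, 0.18 (0.11 to 0.25) for Smad1 and 0.23 (0.14 to 0.31) for Furin. Each kept its direction, and Furin and Smad1 came out closer to 0 by more than 1.5 times.

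**Figure D5:**
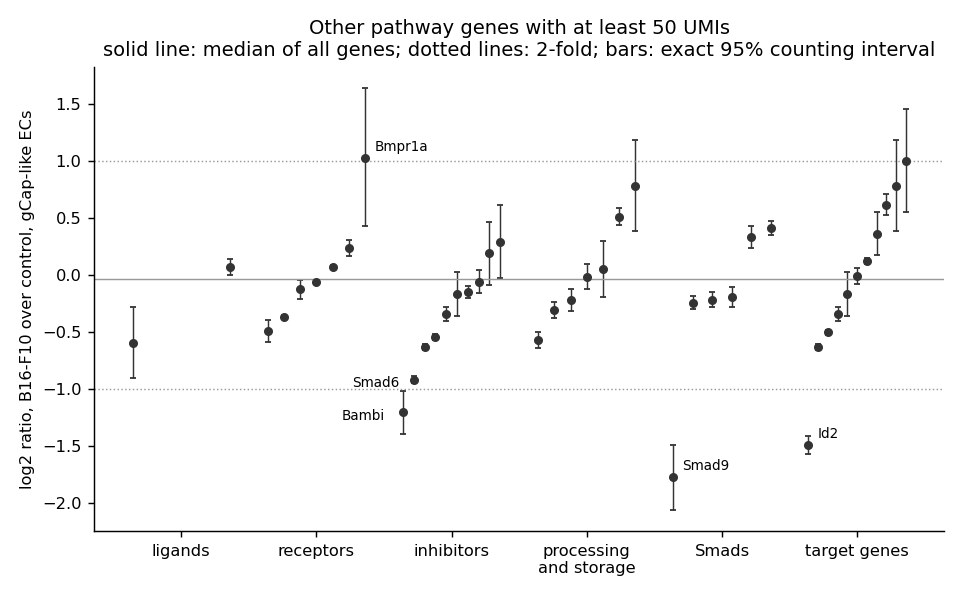
Log2 ratio of B16-F10 over control in gCap-like ECs for pathway genes with at least 50 UMIs, by list, with exact 95% counting intervals. The solid line is the median of all genes (-0.04) and dotted lines mark 2-fold. Bmpr1a lies just above the upper dotted line, and Smad9, Id2 and Bambi lie below the lower dotted line.

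Over the 10 sums of 5 vessel classes in 2 libraries, the 5 genes of 14211 whose log2(CPM + 1) was most like that of Inhbb were Dnajc2 (Pearson r = 0.956), Emg1 (0.945), Snrpd2 (0.929), Timeless (0.893) and Gm5617 (0.887). The sums share 2 libraries and their depths. Dnajc2, a ribosome-associated chaperone gene, was 36.6 and 48.9 CPM in gCap-like ECs, a far smaller difference than that of Inhbb.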

How the data were processed

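Single-cell suspensions of pooled lungs were sorted and run on a droplet kit, labelled v2, with 1 library per group. The deposited UMI counts were raw and covered all barcodes. The file headers name Cell Ranger 7.2.0, the submitters' processing notes also Seurat 4.4.0, and the labels the mm10 build. Gene coordinates came from the GENCODE M21 annotation, which held 32158 of the 32285 gene IDs.

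Barcodes were kept at 1000 to 5000 genes with mitochondrial UMIs below 20%, and the 564 and 554 with the highest Scrublet scores (0.8% per 1000 cells) were removed as doublets. Clustering used scanpy 1.11.5 and leidenalg 0.10.2 (Python 3.11.15) on 2937 variable genes, with 30 components, 20 neighbours and resolution 0.8. Left out of these genes were the members, the pathway lists and the study's marker lists of reactive capillary and high-interferon ECs. A cluster was called EC at 6 of 8 EC markers, and took a class name at 3 markers and 50% of its list, a marker counting at 1.5-fold over the mean of the other clusters and in 10% of cells (EC markers in 50%). Clusters with markers of another cell type were called mixed.

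UMIs were summed by class and library and given as CPM. Intervals (95%, scipy 1.17.1, numpy 2.4.6) cover counting error only, and no test was made. Ratios needed 20 UMIs over both sums, and counts over many genes 50. A count of 0 was set to 3 UMIs for a limit. Free RNA was taken from barcodes with 1 to 100 UMIs. Interval scripts were tested on simulated data. All 9 members were named, with the 4 genes of each pathway list that had the largest log2 ratios in gCap-like ECs among those whose interval left out 0, and the 5 genes most like Inhbb. The members, lists and rules were chosen with earlier results of these data known. Alternatives varied the cell limits, doublet removal, clustering, depth, free RNA and grouping of clusters. 1 gene of the target list, kept in the list counts, is not reported here or plotted. No column of per-sample values was left unused.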

Additional observations from a re-analysis of the deposited data

Results flagged for a closer look

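Inhbb was higher in the B16-F10 than in the control library in barcodes and clusters that no comparison of vessel classes uses, and none of these differences was tested. Barcodes with 1 to 100 UMIs held 3.88 and 54.5 CPM, those with at least 300 but under 1000 genes 4.42 and 41.1 CPM, and those with over 5000 genes 4.62 and 67.7 CPM. Among unnamed EC clusters the Sox9-led cluster held 995 CPM in the B16-F10 library, the Fabp4-led cluster 9.25 and 163 CPM, and the Gm20631-led cluster 3.82 and 41.1 CPM. Among mixed clusters, the one led by Hbb-bt, with red cell markers, held 3.30 and 52.2 CPM, the Ppbp-led cluster, with platelet markers, 1.15 and 72.6 CPM, and the Fam162b-led cluster, with mural markers, 4.92 and 36.3 CPM. The Clec3b-led cluster, with fibroblast and mural markers, held 0 Inhbb UMIs in its control cells, with an exact upper limit of 8.33 CPM. Its B16-F10 cells held 52.2 CPM, 7.70-fold the level that 3 control UMIs would give. The Scgb1a1-led cluster, with epithelial markers, held 5.56 and 34.9 CPM.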

How the results depend on the processing

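No paired analysis was possible because there is 1 library per group. The log2 ratio of Inhbb in gCap-like ECs (4.08) stayed above 0 in all alternatives run. It was 5.05 with at least 500 genes per cell, 1.82 under 10% mitochondrial UMIs, 2.18 with doublets kept, 4.84 with the members and lists kept in the clustering, 4.38 thinned, 4.83 over all ECs, and, chosen after seeing the data, 1.69 without the Lalba-led cluster and 4.85 with the Sox9-led cluster. In vein-like ECs (1.25) it was 4.97 with at least 1500 genes, 4.97 with no upper gene limit and 5.55 with doublets kept. It was 5.23 with the lists kept and 4.79 at clustering resolution 1.6, all of these on 1 or 2 control UMIs. It was 4.83 over all ECs. In artery-like ECs (3.75) it was 6.14 with doublets kept and 5.85 at resolution 1.6. The LEC-like Inhbb level in the B16-F10 library (4.16 CPM) was 0 thinned and 115 CPM over all ECs. The difference in the share of gCap-like cells with an Inhbb UMI (9.40 points) was 1.97 under 10% mitochondrial UMIs, 2.25 with doublets kept, 12.4 thinned to 4000 UMIs and, chosen after seeing the data, 17.1 unthinned, 2.00 without the Lalba-led cluster and 13.2 with the Sox9-led cluster. The summed members in melanoma-like cells (13.3 CPM) were 48.9 CPM with no upper gene limit, 33.6 with doublets kept, 32.5 thinned and 4.73 with free RNA subtracted. Ratios of the other members by class with intervals that left out 0 numbered 13, 6 after thinning, which leaves fewer UMIs, and 25 over all ECs, which repeats 1 sum in each class. In gCap-like ECs the intervals of 28.6% of all genes lay above 0 and of 34.6% below. Such shares were not taken in the other classes, so these counts are no result about the members. After thinning, the Inhbb ratios of aCap-like, artery-like and vein-like ECs could not be given, with under 20 UMIs left. The aCap-like ratio and the pathway-list counts stayed within the limits set for them, the main interval and 1.5 times, under every alternative run. The causes of the other shifts were not tested. Depth limits Inhba, Fst and Fstl3 in all vessel classes and all members in melanoma-like cells.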
